A study of Drosophila melanogaster with 6 samples.

Results

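Oxidative phosphorylation genes were taken as the nuclear genes whose current symbol starts with ND-, COX and a digit, UQCR-, ATPsyn or Sdh, the naming used in Drosophila for the subunits of the 5 respiratory complexes. RefSeq lists 88 such nuclear genes, and 67 of them had a probe set annotated to 1 gene, out of 10844 genes measured on the array. By complex these were 31 of complex I, 7 of complex II, 4 of complex III, 11 of complex IV and 14 of complex V. The other 21 genes, SdhA, UQCR-C1 and UQCR-C2 among them, were not analysed here. RNA of whole larvae of the third instar was read on 6 single-colour Affymetrix arrays. Of these, 3 held mle/mle homozygous larvae, labelled male and separated from heterozygotes that carried mle over a translocation marked with Tb, a larval body shape marker. The other 3 held wild type larvae of the strain written as cancon S, whose sex the labels do not give. The allele of mle and the number of larvae per array are not given either, so genotype, strain and possibly sex cannot be told apart, and p-values measure the spread between these RNA samples.

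Oxidative phosphorylation passes electrons from NADH (complex I) and succinate (complex II) to ubiquinone, on to cytochrome c (complex III) and to oxygen (complex IV), and uses the proton gradient this builds to make ATP (complex V). All of these complexes except complex II also hold subunits coded by the mitochondrial genome, so that products of 2 genomes meet in fixed proportions. The Drosophila genome holds, besides the genes used in most tissues, many duplicates of them that are transcribed mainly in testis. In FlyBase names these mostly end in L, for "like", or in L and a digit, and such members are called L paralogs here. The gene mle codes for an RNA helicase of the complex that raises transcription of the single male X, and the title of the study speaks of a shift between X and autosomes. Nuclear respiratory genes lie on both, and the subunits of 1 enzyme are coded partly on X and partly on autosomes.

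The values were deposited log2 signals from RMA, which normalizes arrays to each other and compresses the differences of dim probe sets. Array medians lay between 6.89 and 6.92, and any pair of arrays correlated at 0.987 to 0.997 over probe sets. Signals of different probe sets cannot be compared as levels, so each gene is set only against itself. Each array's lower quartile, between 5.80 and 5.84, served as a guide to dimness. On all 6 arrays 4 of the 67 genes lay below it, namely ND-B8, COX6AL2, COX7AL and SdhCL. The probe set of mle read 5.32, 5.43 and 5.28 in mle/mle larvae, against 5.38, 5.56 and 5.40 in wild type larvae, which is below the lower quartile and did not pass the test (log2 change -0.10, SE 0.08, adjusted p = 0.9997 by limma).

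No oxidative phosphorylation gene passed the test between mle/mle and wild type. The test was limma's moderated fit, with Benjamini-Hochberg adjustment over 13966 probe sets and a threshold of 0.05, which called 0.0646% of all genes. The smallest adjusted p among the 67 genes was 0.738 by limma. At an unadjusted p under 0.05, 4 of the 67 were higher and 1 lower in mle/mle, against 3.15% and 1.48% of all genes. With the replicate number as a block, 6 were higher and 1 lower, against 4.72% and 2.89% of all genes, and 0 passed the adjustment, where 0.0553% of all genes did. The titles number the replicates but state no pairing, which was inferred from these same values. Groups did not overlap, with mle/mle the higher, in 3 of the 67 genes and, with mle/mle the lower, in 2, against 5.56% and 3.07% of all genes. The counts without overlap lie near the background of the array. Upward counts by unadjusted p lie above it but rest on few genes, all of them autosomal subunits, and the excess was not tested. The fitted changes lay between -0.34 and 0.32 on the log2 scale. For the 49 subunits that are neither an L paralog nor an assembly factor, all 95% intervals lay between -0.41 and 0.58. Those of the 17 L paralogs lay between -1.31 and 0.64, and between -0.43 and 0.42 for the 15 other than COX4L and COX5BL.

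**Figure D1:**
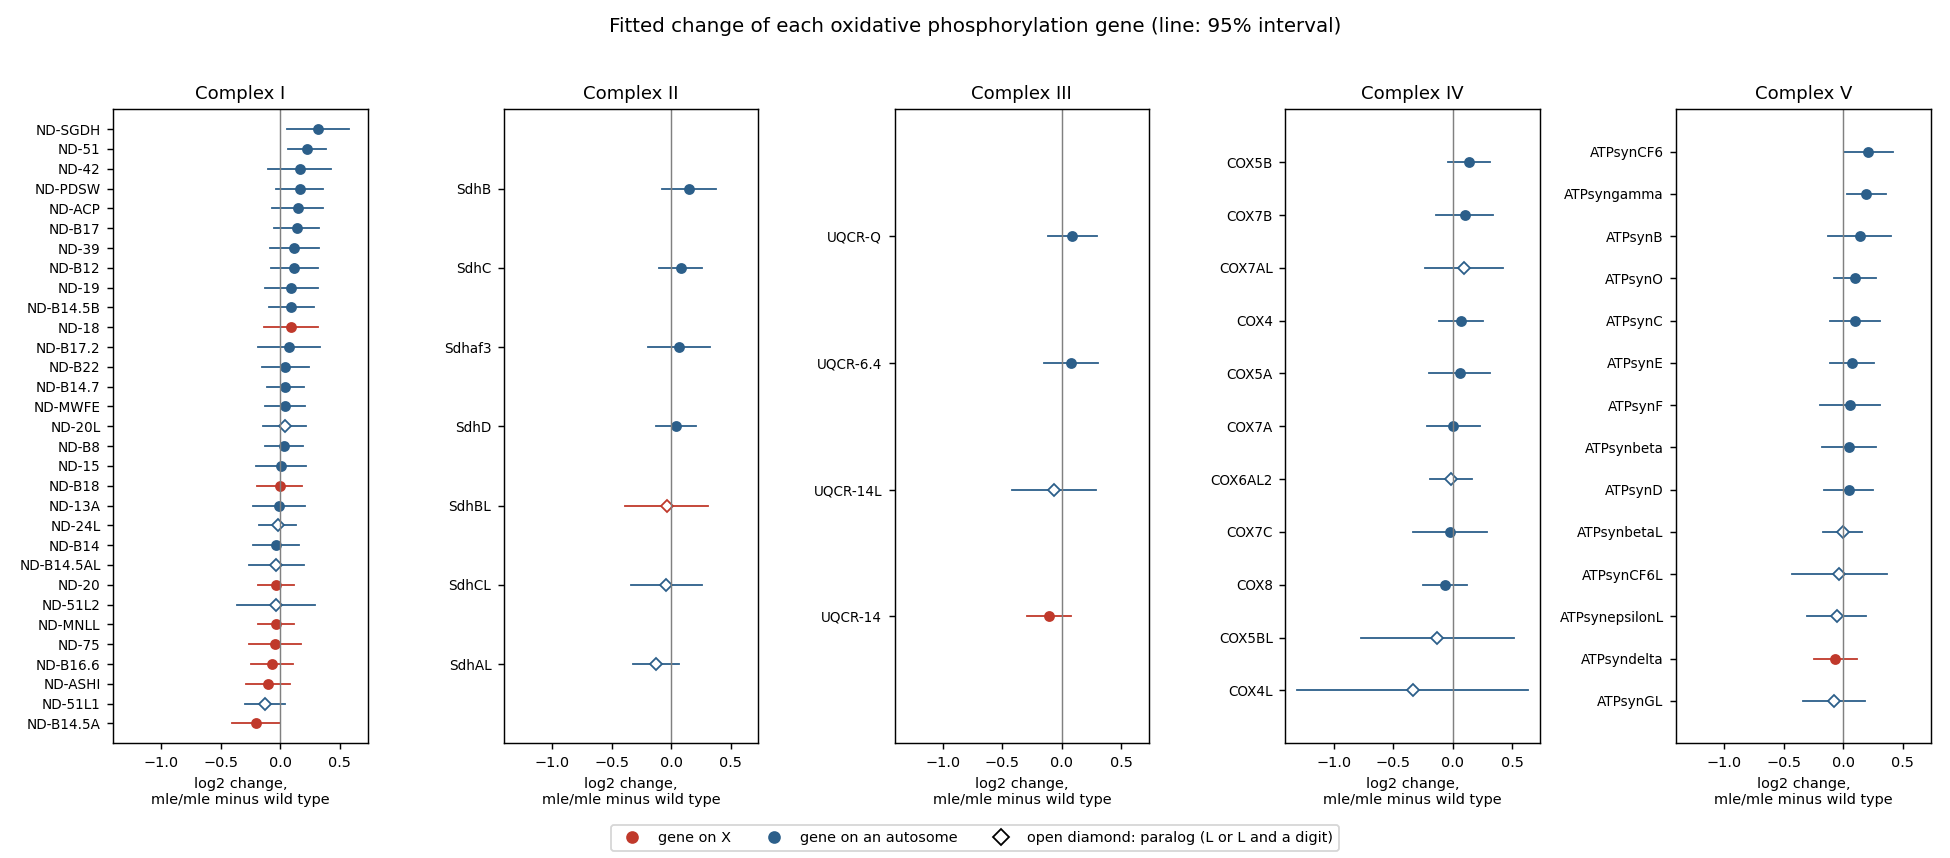
Fitted log2 change of the 67 genes, mle/mle minus wild type, by respiratory complex, with the 95% interval as a line. Red marks genes on X, blue genes on autosomes, and open diamonds L paralogs. In complex I the X genes other than ND-18 lie in the lower part of the panel.

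The first electron acceptors of complex I are bound by large peripheral subunits. ND-51 carries the flavin that takes electrons from NADH. It read 9.14, 9.08 and 9.21 in mle/mle larvae, against 8.89, 8.93 and 8.93 in wild type larvae. All mle/mle arrays lay above all wild type arrays, and its log2 change of 0.23 (SE 0.07) had the smallest p of the 67 genes, yet it failed the adjustment (adjusted p = 0.738 by limma). ND-75, the largest peripheral subunit with several iron-sulfur clusters, read 9.11, 8.98 and 9.25 in mle/mle larvae, against 9.05, 9.16 and 9.27 in wild type larvae. Those groups overlapped almost fully (log2 change -0.04, SE 0.09). ND-20, which holds the cluster next to the quinone site, differed by -0.04 (SE 0.07).

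Accessory subunits of complex I do not transfer electrons but build and stabilise the enzyme. ND-SGDH, one of them, read 9.41, 9.06 and 9.48 in mle/mle larvae, against 9.05, 8.97 and 8.98 in wild type larvae. Its groups did not overlap, although mle/mle replicate 2 lay barely above the highest wild type array. The log2 change of 0.32 (SE 0.11) was the most positive of the 67 genes and did not pass (adjusted p = 0.894 by limma). When the arrays numbered 2 were dropped from mle/mle and wild type alike, ND-SGDH differed by 0.43 and was the one gene of the 67 to pass (adjusted p = 0.021 by limma), where 3.52% of all genes passed. By unadjusted p, 10 of the 67 then passed 0.05 upward and 2 downward, against 7.55% and 6.84% of all genes. ND-B14.5A, an accessory subunit on X, read 10.09, 10.19 and 9.92 in mle/mle larvae, against 10.26, 10.23 and 10.32 in wild type larvae. Each mle/mle array lay below each wild type array, and its log2 change of -0.21 (SE 0.09) was the most negative of complex I (adjusted p = 0.9997 by limma). The brightest probe sets of complex I, those of ND-B14.5B and ND-MWFE, differed by 0.09 and 0.04.

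Complex II, succinate dehydrogenase, also belongs to the citric acid cycle. Its iron-sulfur subunit SdhB read 9.97, 9.73 and 9.98 in mle/mle larvae, against 9.61, 9.79 and 9.82 in wild type larvae, a log2 change of 0.15 (SE 0.10). The membrane anchors SdhC and SdhD differed by 0.08 and 0.04, and Sdhaf3, a factor that assembles the enzyme, by 0.07. None of these 4 passed, and their groups overlapped. In complex III, UQCR-Q differed by 0.09 and UQCR-6.4 by 0.08, whereas UQCR-14, which lies on X, differed by -0.11. UQCR-14 read 9.23, 9.32 and 9.20 in mle/mle larvae, against 9.30, 9.48 and 9.30 in wild type larvae. Within each replicate number the mle/mle array was the lower.

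Complex IV hands electrons to oxygen, and its nuclear subunits surround a core coded in mitochondria. COX4, with the brightest probe set of the 67, read 11.94, 11.78 and 11.97 in mle/mle larvae, against 11.85, 11.75 and 11.89 in wild type larvae. The overlap was wide (log2 change 0.07, SE 0.08). COX5A differed by 0.06 and COX5B by 0.14, with COX5B at 11.68, 11.52 and 11.64 in mle/mle larvae, against 11.53, 11.42 and 11.47 in wild type larvae. COX8 differed by -0.06. Of the 7 complex IV subunits, 5 had a positive change and 2 a negative one, and none passed.

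Complex V is the ATP synthase. Its central stalk subunit ATPsyngamma read 11.39, 11.25 and 11.37 in mle/mle larvae, against 11.16, 11.13 and 11.14 in wild type larvae. The groups did not overlap, and the wild type arrays lay close together, but the log2 change of 0.19 (SE 0.07) did not pass (adjusted p = 0.965 by limma). ATPsynCF6, of the peripheral stalk, read 10.72, 10.45 and 10.69 in mle/mle larvae, against 10.42, 10.36 and 10.46 in wild type larvae, where 1 mle/mle array lay inside the wild type range (log2 change 0.21, SE 0.09, adjusted p = 0.9997 by limma). The catalytic subunit ATPsynbeta, on chromosome 4, differed by 0.05, and ATPsynE and ATPsynD, the brightest of complex V, by 0.07 and 0.05. Of the 10 complex V subunits, 9 had a positive change, the exception being ATPsyndelta, on X, at -0.07. A second probe set of ATPsynC, dimmer than the one used, differed by -0.05 where the one used differed by 0.10.

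Over all 67 genes the median log2 change was 0.04, with 39 positive and 28 negative, against a median of 0.01 and 53.6% positive over all genes. By complex the medians were 0.04 (I), 0.04 (II), 0.004 (III), 0.01 (IV) and 0.05 (V). After quantile normalization those of complexes I, III and IV were -0.023, -0.039 and -0.018, and in the PLIER table that of complex III was -0.077. The median over the 67 genes was -0.003 when mle/mle replicate 1 was left out, -0.006 without wild type replicate 2 and -0.001 after quantile normalization, and it was 0.099 without mle/mle replicate 2. It therefore has no settled direction. For the 49 subunits the median was 0.07, with 36 positive and 13 negative, but 0.023 without mle/mle replicate 1, 0.125 without mle/mle replicate 2 and 0.032 after quantile normalization.

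The arrays of replicate number 2 were low for many of these genes in both groups, but not for all sets of them. Each gene was centred on its mean over the 6 arrays, and the median over the 49 subunits was taken per array. It was 0.10, -0.07 and 0.08 in mle/mle larvae, against -0.02, -0.10 and 0.01 in wild type larvae. Replicate 2 was the lowest array of its group in both groups for 37 of the 67 genes, against 17.4% of all genes. In wild type larvae it was not the lowest for the X-linked subunits, with medians of 0.009, 0.027 and 0.042. Nor was it for the 31 complex I genes, L paralogs included, with wild type medians of -0.025, -0.013 and 0.008. For the 26 complex I subunits alone replicate 2 was the lowest, with wild type medians of -0.03, -0.05 and 0.02. The deviations of same-numbered arrays from their group means correlated over the 67 genes at 0.41, 0.69 and 0.72. Markers of muscle, a tissue rich in mitochondria, had medians of 0.10, -0.36 and 0.24 in mle/mle larvae, against -0.05, -0.07 and 0.10 in wild type larvae, over 11 genes of which 0 lay below the lower quartile on all arrays, with changes from -0.16 (Mf) to 0.13 (up) and 0 that passed. Their part in the low replicate 2 values was not tested. In whole larvae, fewer cells of a type and less RNA per cell cannot be told apart.

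**Figure D2:**
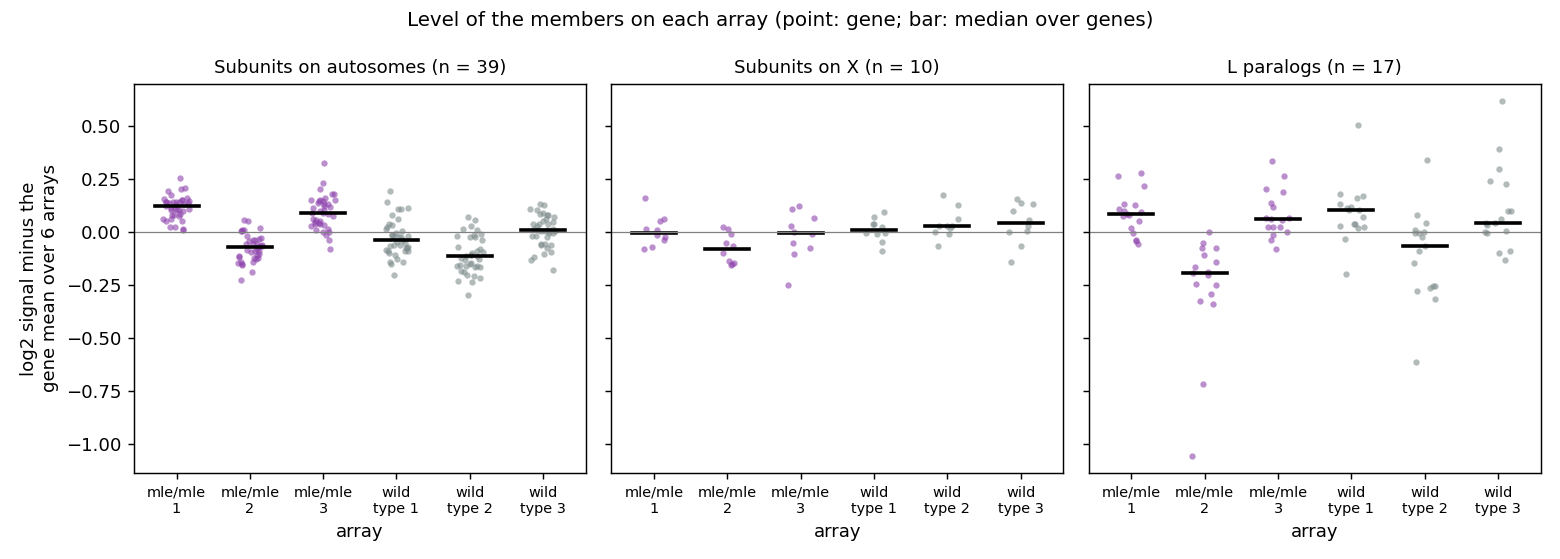
Log2 signal of each gene on each array, centred on the gene's mean over the 6 arrays, for 39 autosomal subunits, 10 X-linked subunits and 17 L paralogs. Points are genes and black bars medians. The medians of autosomal subunits lie lowest on replicate 2 of each group. Within each replicate number they lie higher in mle/mle than in wild type, whereas the X-linked medians lie lower in mle/mle.

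Subunits on X and on autosomes parted. This split was looked at after the values were seen, so it is given without a test. Of the 10 subunits on X, 9 had a negative change and 1, ND-18, a positive one (0.09), with a median of -0.06. Of the 39 subunits on autosomes, chromosome 4 included, 35 had a positive change and 4 a negative one, with a median of 0.08. The 17 L paralogs are not part of this split. All of them but SdhBL lie on autosomes, yet 15 of the 17 had a negative change. On the whole array, 62.2% of X genes and 43.3% of genes on the large autosome arms had negative changes. Of the 10 X-linked subunits 7 had the mle/mle array below the same-numbered wild type array in every one of the 3 pairs. In 0 it lay above in every one, where 16.8% of X genes were below and 7.77% above. Of the 39 autosomal subunits 20 had mle/mle above in every pair and 1 below in every pair, where 17% and 11.2% of autosome arm genes were.

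Complex I, whose subunits lie on both kinds of chromosome, held 8 of the 10 X-linked and 18 of the 39 autosomal subunits. Its values are thus part of the split above and no separate support for it. Of its 8 X-linked subunits, 7 were negative: ND-B14.5A (-0.21), ND-ASHI (-0.11), ND-B16.6 (-0.07), ND-75 (-0.04), ND-MNLL (-0.04), ND-20 (-0.04) and ND-B18 (-0.01). Of its 18 autosomal subunits, 16 were positive, led by ND-SGDH, ND-51, ND-42 (0.16) and ND-PDSW (0.16). The negative ones were ND-B14 (-0.03) and ND-13A (-0.01). Outside complex I, the X-linked UQCR-14 was the 1 negative value among the 3 complex III subunits, and the X-linked ATPsyndelta the 1 negative value among the 10 complex V subunits. In complex IV, with 0 of its 7 subunits on X, the negative values were those of COX8 (-0.06) and COX7C (-0.02), on autosomes. None of these single changes passed the adjustment, and the median SE of a subunit was 0.09.

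Per array, the median of X-linked subunits minus that of autosomal subunits was -0.13, -0.01 and -0.09 in mle/mle larvae, against 0.05, 0.14 and 0.03 in wild type larvae. All 3 mle/mle arrays lay below all 3 wild type arrays. The means were -0.08 ± 0.06 in mle/mle and 0.07 ± 0.06 in wild type (SD, n = 3 each), a difference of -0.15, and the same-numbered pairs differed by -0.17, -0.15 and -0.13. Within complex I alone the values were -0.11, -0.05 and -0.05 in mle/mle larvae, against 0.07, 0.15 and 0.03 in wild type larvae. For all genes, X minus autosome arms was -0.03, 0.02 and -0.04 in mle/mle larvae, against 0.01, 0.04 and 0.01 in wild type larvae, a smaller difference of -0.04. The groups overlapped, while the same-numbered pairs differed by -0.04, -0.03 and -0.05, all negative as for the subunits. Whether the subunits differ more than X genes at large was not tested.

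**Figure D3:**
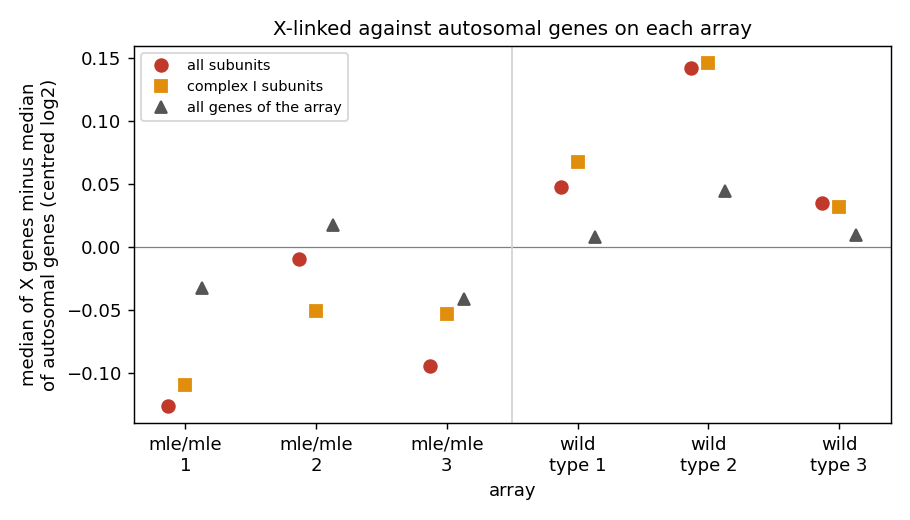
Median of X-linked genes minus median of autosomal genes on each array, in centred log2 units, for the 49 subunits (circles), the 26 complex I subunits (squares) and all genes (triangles). For both sets of subunits every mle/mle array lies below 0 and every wild type array above 0, while the triangles of the groups overlap.

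In the fitted changes the X-linked median minus the autosomal median was -0.13, and it was negative, from -0.19 to -0.09, in the 12 alternative settings that can move a change (both blocks and the variance trend leave it as it is). It was -0.19 in the deposited PLIER table, a second summary of the same arrays, -0.16 after quantile normalization and -0.14 without replicate 2 of both groups. The PLIER columns carry 2 array codes, each with equal numbers of both groups. Within the code of 4 arrays the value was -0.17, and within the code of 2 arrays, with 1 array per group, it was -0.20. The split does not rest on 1 array, as it was between -0.17 and -0.09 with any single array left out. Each side of it moved with the setting: leaving out mle/mle replicate 1 gave an autosomal median of 0.04 and leaving out mle/mle replicate 2 one of 0.14, and the X-linked median was -0.03 without mle/mle replicate 2 and -0.11 after quantile normalization.

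Of the 17 L paralogs, 15 had a negative change and 2, COX7AL (0.09) and ND-20L (0.04), a positive one, and their median was -0.04. Among all 10844 genes 5034 had a negative change. None of the paralogs passed. By limma 0 of them had an unadjusted p under 0.05, where 3.15% of all genes were higher and 1.48% lower. With the replicate number as a block 1, COX4L, did and was lower, where 4.72% of all genes were higher and 2.89% lower. The paralog median turned to 0.04 without mle/mle replicate 2 and was -0.13 in the PLIER table. Lower in mle/mle, ND-51L1 was the one paralog whose groups did not overlap, as was so for 5.56% of all genes upward and 3.07% downward. It read 7.29, 7.26 and 7.25 in mle/mle larvae, against 7.49, 7.33 and 7.38 in wild type larvae, a log2 change of -0.13 (SE 0.07, adjusted p = 0.9997 by limma). It was -0.04 in the PLIER table and -0.08 without wild type replicate 1. Its partner ND-51 went the other way, so that ND-51L1 minus ND-51 differed by -0.36, and by -0.45, -0.22 and -0.40 in the same-numbered pairs. The second paralog of the same gene, ND-51L2, near the lower quartile, differed by -0.04.

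COX4L and COX5BL varied more than any other of the 67 genes, and they did so within the groups. COX4L read 7.49, 6.22 and 7.61 in mle/mle larvae, against 7.78, 6.66 and 7.89 in wild type larvae. In each group replicate 2 stood over 1 log2 unit below the others. The log2 change of -0.34 had an SE of 0.42 without the replicate block. With the block the SE was 0.07, and the change still did not pass (adjusted p = 0.216 by limma). The mle/mle array was the lower in each same-numbered pair, with differences of -0.29, -0.44 and -0.28, and the change was -0.28 with both arrays numbered 2 left out. Leaving out 1 array of that pair gave 0.11 (without mle/mle replicate 2) and -0.73 (without wild type replicate 2). COX5BL read 8.00, 7.02 and 8.00 in mle/mle larvae, against 7.85, 7.42 and 8.12 in wild type larvae, with replicate 2 again the lowest in both groups (log2 change -0.13, SE 0.28, and 0.20 without mle/mle replicate 2). Over the 6 arrays COX4L ranged over 1.67 log2 units and COX5BL over 1.11, while their partners COX4 and COX5B ranged over 0.22 and 0.26. The median range was 0.42 over paralogs, 0.29 over subunits and 0.30 over all genes.

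**Figure D4:**
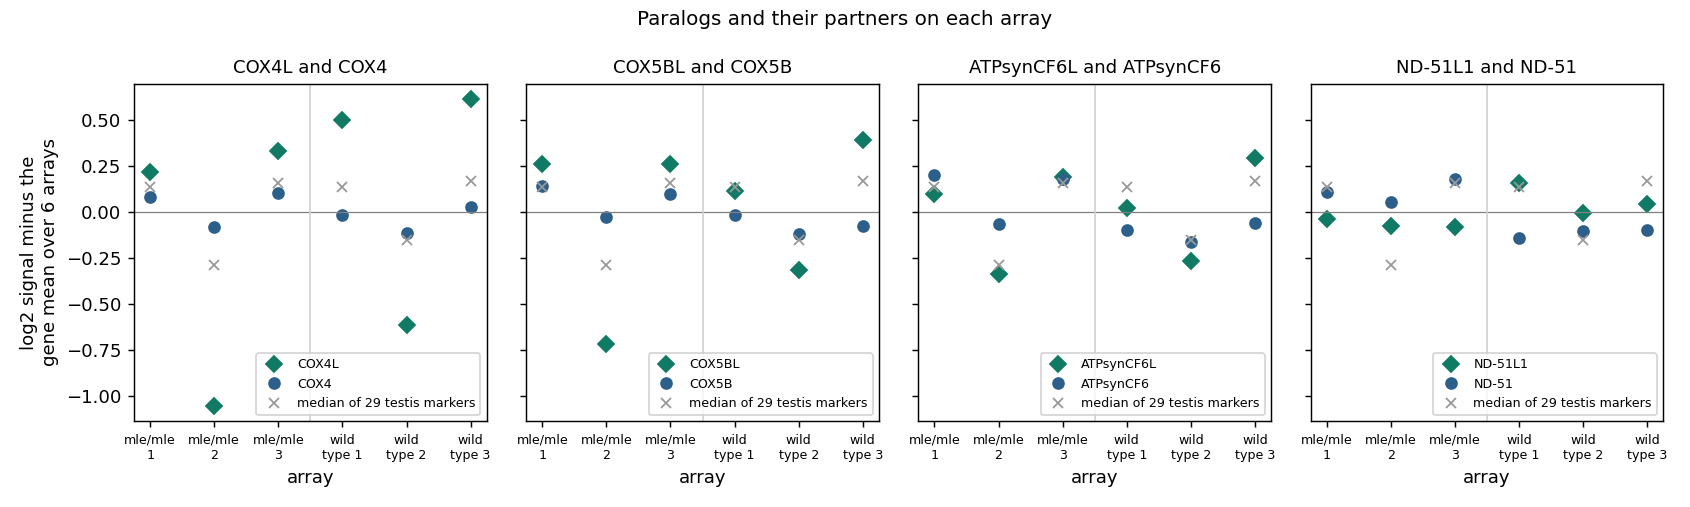
Log2 signal on each array, centred on the gene's mean over the 6 arrays, for 4 paralogs (green diamonds), their partners (blue circles) and the median of 29 testis markers (grey crosses). COX4L, COX5BL and ATPsynCF6L drop on replicate 2 of both groups, as the median of the testis markers does. ND-51L1 and ND-51 lie in opposite order in the groups.

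As a median, testis markers were lowest on the same arrays, those of replicate number 2. Of the 29 measured markers, 5 lay below the lower quartile on all arrays, and their centred median was 0.14, -0.29 and 0.16 in mle/mle larvae, against 0.13, -0.15 and 0.17 in wild type larvae. Of the 29, 23 had a negative change and 0 passed, with 0 at an unadjusted p under 0.05 by limma, between -0.39 (S-Lap8) and 0.09 (bol). Mst84Da, a gene of the sperm tail, read 11.04, 9.71 and 10.99 in mle/mle larvae, against 11.08, 10.17 and 11.07 in wild type larvae. Those groups overlapped. In the same-numbered pairs 8 of the 29 markers were lower in mle/mle in all 3 and 0 higher in all 3. Of all 10844 genes, 1309 were lower and 1680 higher in all 3. The part of testis content in the values of the paralogs was not tested. Replicate 2 was the lowest array in both groups for 10 of the 17 L paralogs: COX4L, COX5BL, ATPsynCF6L, UQCR-14L, SdhBL, SdhAL, SdhCL, COX7AL, ATPsynGL and ATPsynepsilonL. Of these, ATPsynCF6L, UQCR-14L and SdhBL differed by -0.03, -0.07 and -0.04. SdhAL and ATPsynGL, whose partners were not analysed here, differed by -0.13 and -0.08. The others not yet given lay between -0.06 and -0.01: ATPsynepsilonL (-0.06), SdhCL (-0.04), ND-B14.5AL (-0.04), ND-24L (-0.02), COX6AL2 (-0.01) and ATPsynbetaL (-0.01). Of 14 paralogs with a measured partner, counting levy for COX6AL2 and sun for ATPsynepsilonL, 9 had a lower change than the partner.

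Further respiratory chain genes that the name rule does not find gave a mixed picture. Of 8 measured, 3 had a positive and 5 a negative change, with a median of -0.02, and 0 passed the adjustment. At an unadjusted p under 0.05 there was 1 higher and 0 lower, against 3.15% and 1.48% of all genes. The higher one was Cyt-c1, the cytochrome of complex III that reduces cytochrome c. It read 9.82, 9.53 and 9.86 in mle/mle larvae, against 9.31, 9.35 and 9.49 in wild type larvae, without overlap (log2 change 0.35, SE 0.11, adjusted p = 0.705 by limma). RFeSP, the Rieske iron-sulfur protein of the same complex, differed by 0.16. The most negative change of this list was that of sun, the epsilon subunit of ATP synthase and the one of the 8 on X. It read 9.68, 9.75 and 9.65 in mle/mle larvae, against 9.94, 9.72 and 9.91 in wild type larvae (log2 change -0.16, SE 0.08). On autosomes, Cyt-c1L (-0.13), AIF (-0.03), cype (-0.03) and ox (-0.02) were also negative, and levy (0.08) was positive.

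No gene of the neighbouring lists, mostly of mitochondrial genes, passed either. For the citric acid cycle and pyruvate dehydrogenase the median was 0.12 over 15 measured genes, 9 positive and 6 negative, with the aconitase genes mAcon1 (0.29) and mAcon2 (-0.11) at the ends. Among 11 carriers and porins the median was 0.03 and 9 were positive, from -0.20 (Porin2) to 0.35 (the phosphate carrier Mpcp1). Factors that copy, transcribe or regulate mitochondrial genes ran from -0.19 (ewg) to 0.10 (crc), 6 of 10 being positive, around a median of 0.02. Assembly factors, 10 measured, also had a median of 0.02, from -0.11 (sicily) to 0.12 (Cox10). Of the lists given so far in this paragraph, Mpcp1 alone had an unadjusted p under 0.05, where 3.15% of all genes did upward and 1.48% downward. Among 5 enzymes of peroxide and superoxide defence, the extracellular superoxide dismutase Sod3 was the lowest at -0.33 and the mitochondrial peroxiredoxin Prx3 the highest at 0.21. Both had an unadjusted p under 0.05 by limma, 0.0031 for Sod3 and 0.021 for Prx3. The groups of both did not overlap, as was so for 5.56% of all genes upward and 3.07% downward. Sod3 read 8.63, 8.58 and 8.70 in mle/mle larvae, against 8.94, 8.88 and 9.08 in wild type larvae, and its adjusted p was 0.436 by limma.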

How the data were processed

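RMA made the log2 signals used throughout, which the authors deposited; the method is named per the submitters' processing notes, and its version and settings are not given in the sources used here. A second deposited table is, per the file headers, PLIER signal on the log2 scale after adding 16, and its columns show the group but not the replicate number. Of 14010 probe sets, 44 array controls were left out. The platform annotation gave 12443 probe sets 1 symbol, 327 several and 1196 none, and symbols and chromosomes were updated through RefSeq (Release 6 plus ISO1 MT), 12394 by Entrez ID. The probe set with the highest mean over the 6 arrays stood for a gene, and 4 probe sets of several symbols that name a member were not used. The test was two-sided and used limma 3.58.1 (lmFit, then eBayes) under R 4.3.3, tested on simulated data beforehand. Intervals are 95% intervals of the same fit. Figures used matplotlib 3.10.9 in Python 3.11.15. Same-numbered arrays deviated together in these values (correlations of 0.17, 0.28 and 0.52 over all probe sets). The titles state no pairing, but their numbers were taken as pairs on this ground, and a replicate block was an alternative. Others were the PLIER table, quantile normalization, leaving out the dimmest 40% of probe sets, a variance trend, means over probe sets, and leaving out arrays. The members, the lists and the alternatives were chosen with earlier results of these data known. Named were, per complex, the 2 brightest genes and the most positive and most negative changes, genes with an unadjusted p under 0.05 or no overlap, L paralogs, and some core subunits; others were named after their values were seen. The number of arrays limits the precision.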

Additional observations from a re-analysis of the deposited data

How the results depend on the processing

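The count of members that passed, 0, was the same in 14 of 15 alternatives and was 1 without replicate 2 of both groups. The replicate block, which uses the inferred pairing, changed no call. It left 6 members higher and 1 lower by unadjusted p, where the fit without it had 4 and 1. The PLIER table had 1 higher, the variance trend 0 lower, and dropping both arrays numbered 2 gave 10 higher and 2 lower. Taking the array code of the PLIER columns as a block gave 1 higher and 0 lower, and keeping only the code of 4 arrays 0 and 0. With single arrays left out the counts ran from 0 (without mle/mle replicate 3) to 8 (without mle/mle replicate 2) higher and from 0 to 1 lower. Of all genes, 3.15% were higher in the fit without the block, 4.72% with it and 7.55% without replicate 2 of both groups. The lower shares were 1.48%, 2.89% and 6.84%. For the other alternatives the share of all genes was not counted, so their counts cannot be read as a trait of the members. The complex I median was -0.023 after quantile normalization. That of X-linked subunits was -0.109 after quantile normalization and -0.089 in the PLIER table, with and without the code as a block. With single arrays left out the complex II median ran from -0.063 to 0.096 and that of complex III from -0.039 to 0.114. The cause of these shifts was not tested. Of 37 members checked singly, 14 kept their sign in all 15 alternatives, 12 of which can move a change, and SdhAL did in the 14 it was run in. Dim probe sets limit what 3 of the 17 L paralogs can show, and the spread between arrays limits COX4L and COX5BL.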
